A study of Mus musculus with 8 samples.

Results

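The genes described here are Myc with its partner Max and its target Odc1, and 33 genes of ribosome assembly, 36 genes in all. They were named by symbol. For each, the probe set that the array's annotation gives 1 gene symbol was used, and the brightest where there were several. This measured 35 of the 36, among 19938 genes measured in the series. Noc2l, a factor of the large subunit, had no probe set with a single gene symbol, so its level was not analysed. It was counted in the promoter search only.

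MYC is a transcription factor that binds DNA as a dimer with MAX, most tightly at the E-box CACGTG. Genes of ribosome assembly are among its best known targets, and growing leukaemia cells need many ribosomes. Ribosomes are assembled in the nucleolus: RNA polymerase I transcribes the ribosomal RNA precursor, small nucleolar ribonucleoproteins (snoRNPs) modify and fold it, and separate sets of assembly factors cut it and build it into the small and the large subunit.

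All cells were c-Kit-positive bone marrow cells in which both Runx1 and Cbfb were floxed. They were transduced with MLL-AF9, a leukaemia fusion gene, and with CreERT2, whose Cre activity depends on 4-hydroxytamoxifen (4OHT), and were replated under puromycin. Control cultures were given ethanol and the cultures labelled Runx1/Cbfb-deleted 1 µM 4OHT, each for 24 h in cytokine-enriched methylcellulose. There were 2 clones with 2 biological replicates each, so that 8 Affymetrix arrays formed 4 sets of 1 control and 1 treated culture. Each group held 4 arrays. No culture given 4OHT without floxed alleles was compared, so effects of the deletion and of 4OHT with active Cre cannot be told apart. The RNA is from whole cultures, in which fewer cells of a type and less RNA per cell cannot be told apart. Values are probe-set levels on the log2 scale, and the number of arrays limits their precision.

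The labels and the cells were checked first. Runx1 was higher in the array labelled deleted in all 4 sets, by 0.48 to 0.56 (log2), against the direction of the label, and the Cbfb difference was -0.27 to -0.078. Probe sets of this array type can lie in many exons, so neither value tests the deletion, and the treated arrays are called the arrays labelled deleted throughout. The 12 myeloid progenitor markers, Mpo and Elane among them, were all measured, and Csf1r, at a mean of 6.36, was the one near the array medians of 6.26 to 6.39. The mean level of the 12 was 10.79 to 10.97 in control arrays and 10.47 to 10.80 in the arrays labelled deleted, and 6 of the 12 fell (Prtn3, Ms4a3, Kit, Cebpa, Spi1 and Itgam; limma adjusted p under 0.05, a threshold that 0.953% of all genes passed in either direction). None of the 34 measured markers of erythroid, megakaryocyte, mast, lymphoid or stromal cells passed the test of change.

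The sequences around the start sites are shown because the E-box is the letter string that MYC and MAX are known for. RefSeq promoter windows (build GRCm38.p6, 250 bases before to 50 after the start) were found for 30 of the 36 genes. Those of Myc, Bop1, Fbl, Rrs1, Rrp12 and Npm1 were not in the table. CACGTG, which reads the same on both strands, stood in a window of 9 of the 30 genes (30.0%), against 8.09% of all 27025 genes with a window. The RUNX motif TGTGGT, searched on both strands, stood in 4 of the 30 (13.3%; Heatr1, Nop56, Odc1 and Pes1), against 18.9% of all genes. The 2 motifs share no full match and were counted separately, and windows were not matched for base composition. A match describes letters and is no binding site. The 9 E-boxes lay between 60 bases before and 40 bases after the start. Each is given 5′ to 3′ on the gene's strand, with the E-box in capitals.
Max: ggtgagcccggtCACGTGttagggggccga
Mybbp1a: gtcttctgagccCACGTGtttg
Nle1: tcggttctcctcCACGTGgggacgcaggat
Nop2: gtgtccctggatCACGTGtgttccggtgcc
Pes1: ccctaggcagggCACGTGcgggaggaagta
Tsr1: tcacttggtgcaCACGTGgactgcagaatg
Utp20: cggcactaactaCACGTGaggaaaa
Utp4: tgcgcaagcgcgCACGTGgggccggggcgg
Wdr43: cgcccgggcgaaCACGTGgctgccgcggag

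These stretches lie at chr12:76962234-76962263 on the minus strand for Max, chr11:72441355-72441376 on the plus strand for Mybbp1a, and chr11:82908355-82908384 on the minus strand for Nle1. Nop2 is at chr6:125131811-125131840, Pes1 at chr11:3963965-3963994 and Tsr1 at chr11:74898092-74898121, all on the plus strand. Utp20 is at chr10:88826765-88826789 on the minus strand, and Utp4 at chr8:106893643-106893672 and Wdr43 at chr17:71616220-71616249 are on the plus strand. The E-boxes of Max and Nop2 begin 3 and 60 bases before the start site, and those of the other 7 genes begin after it, within the first bases of the transcript.

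No change of Myc or of the ribosome assembly genes was detected between the arrays labelled deleted and the controls. None of the 35 genes passed the test (limma with the set as a block, Benjamini-Hochberg adjusted p under 0.05 over all genes), where 0.953% of all genes did. At an unadjusted p under 0.05 there were 2 of the 35 (5.71%), Heatr1 and Odc1, against 6.47% of all genes. Mean changes ran from -0.11 for Rrp9 to 0.11 for Odc1, and 32 of the 35 were within 0.1 of 0. The median change was -0.0049, against 0.00018 over all genes, and the median size of the change was 0.025, against 0.042. The 95% intervals bound the mean change over the 4 sets, taken as independent, and not the change within a clone or replicate number. Rrp9 had the widest bound, at 1.17-fold. The median gene's bound was 1.08-fold and the smallest, of Nop56, was 1.04-fold. Intervals from fewer sets reached further, such as -0.35 (log2) for Rrp9 in the replicate 1 sets and 0.36 for Ddx10 in clone 1. The SD over the 4 set changes had a median of 0.073 in these genes, against 0.12 over all genes. All 35 lie above the median level, and neither the size nor the SD was compared within that class.

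**Figure D1:**
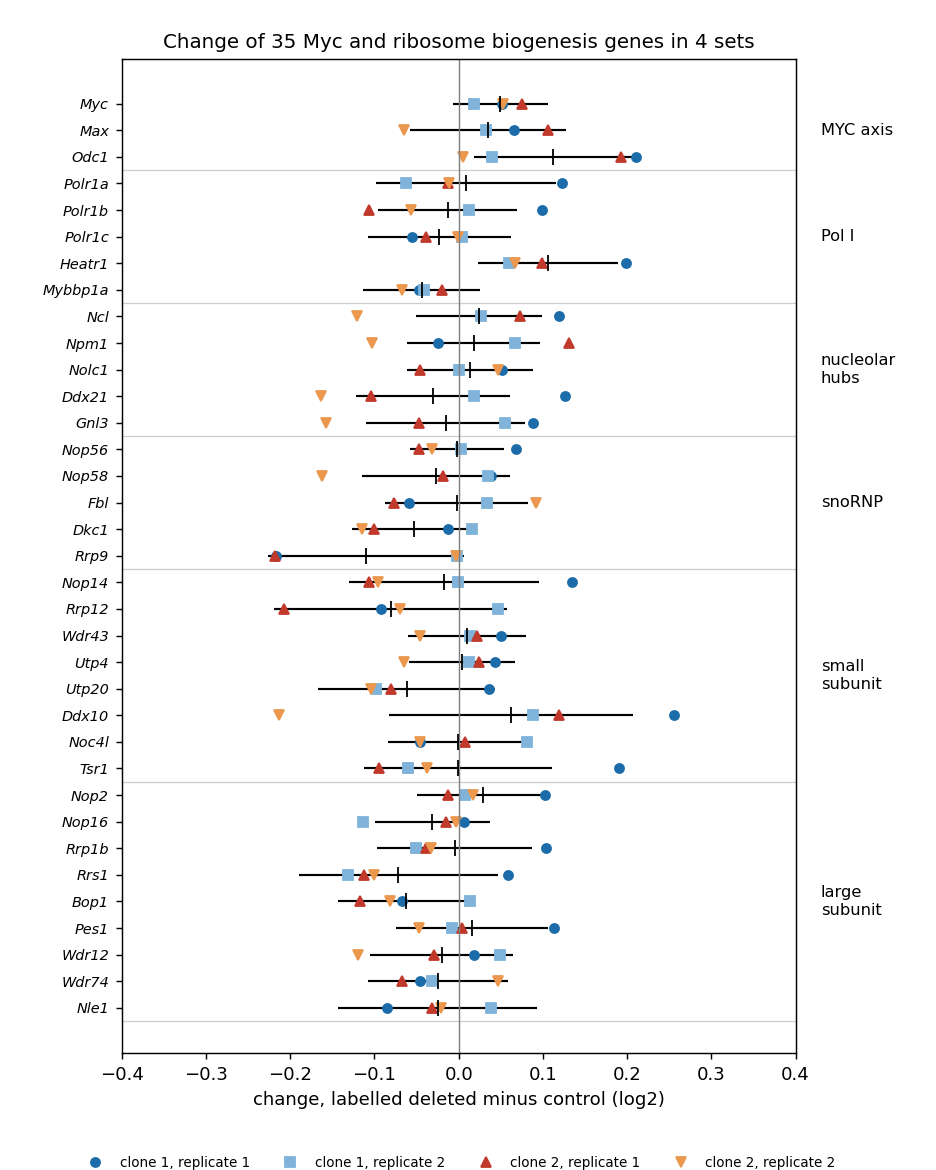
Change of each of the 35 genes (log2, array labelled deleted minus control) in the 4 sets, grouped by role. Points are sets, the tick is the mean and the line its 95% interval from limma; 32 of the 35 means lie within 0.1 of 0, and only the intervals of Heatr1 and Odc1 leave out 0.

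In control arrays Myc stood at 11.67 and 11.68 in clone 1 and at 11.84 and 11.79 in clone 2. In the arrays labelled deleted it stood at 11.72 and 11.70 in clone 1 and at 11.91 and 11.84 in clone 2. It was higher in the array labelled deleted in 4 of 4 sets, by 0.018 to 0.075, but the groups overlapped, since the controls of clone 2 were above both treated arrays of clone 1. The group means were 11.74 ± 0.08 and 11.79 ± 0.10 (SD, n = 4), a change of 0.049 ± 0.026 (SE, n = 4 sets; limma adjusted p = 0.91) with a 95% interval from -0.0070 to 0.11.

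Max, the obligate partner of MYC, was at 10.20, 10.13, 10.14 and 10.18 in the controls of clone 1 replicates 1 and 2 and clone 2 replicates 1 and 2. In the same order it was at 10.27, 10.17, 10.24 and 10.12 in the arrays labelled deleted. The groups overlapped, and 3 of 4 sets were above 0 (mean change 0.035 ± 0.043, SE, n = 4 sets).

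Odc1 encodes ornithine decarboxylase, the first enzyme of polyamine synthesis and a classical MYC target. Its controls were at 10.61, 10.55, 10.49 and 10.37 in that order, and its arrays labelled deleted at 10.82, 10.59, 10.68 and 10.37. In the probe set used, the difference came in both replicate 1 sets (0.21 and 0.19), while the replicate 2 sets stood at 0.040 and 0.0050. The mean change was 0.11 ± 0.04 (SE, n = 4 sets; limma adjusted p = 0.55). A second Odc1 probe set gave 0.34, 0.16, 0.19 and -0.034 in the same sets, a mean of 0.16. Both probe sets were highest in clone 1 replicate 1, and their signs were opposite in clone 2 replicate 2. In the second, clone 1 replicate 2 lay near clone 2 replicate 1.

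Among the genes of ribosomal RNA transcription, Heatr1 had the smallest p of all 35. It encodes a large HEAT-repeat protein of the complex that couples transcription of the precursor to its first processing. Its controls stood at 10.29, 10.49, 10.54 and 10.67 and its arrays labelled deleted at 10.49, 10.55, 10.64 and 10.74. All 4 sets were above 0, by 0.059 to 0.20, while the groups overlapped because the sets started from different levels. The change was 0.11 ± 0.04 (SE, n = 4 sets; limma adjusted p = 0.47). Polr1a and Polr1b, the subunits that form the catalytic centre of RNA polymerase I, had mean changes of 0.0089 and -0.013, and Polr1c, a subunit shared with RNA polymerase III, of -0.023. Mybbp1a, a nucleolar protein first found as a partner of MYB, was below 0 in 4 of 4 sets, with a mean of -0.044.

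The genes of abundant nucleolar proteins had mean changes on both sides of 0. Ncl (nucleolin) stood at 0.024, Npm1 (nucleophosmin, mutated in a class of human leukaemia) at 0.018 and Nolc1, a chaperone of snoRNPs, at 0.013. Gnl3 (nucleostemin, a nucleolar GTPase) stood at -0.015 and Ddx21, an RNA helicase, at -0.031. Npm1 is also read by 3 probe sets that the annotation shares with a second gene symbol. Their mean changes of 0.037 to 0.050 were above that of the probe set used. In clone 1 replicate 1 they ran from -0.015 to 0.0655, where the probe set used was at -0.024.

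All 5 snoRNP genes had a mean change below 0, none past the threshold, where 50.1% of all genes had one above 0. Nop56 and Nop58, which form the core of box C/D snoRNPs with the methyltransferase fibrillarin (Fbl), stood at -0.0018, -0.027 and -0.0024, and Dkc1 (dyskerin, the pseudouridine synthase of H/ACA snoRNPs) at -0.053. Rrp9, the protein that marks the U3 snoRNP, was at 9.60, 9.62, 9.89 and 9.62 in controls and at 9.38, 9.61, 9.67 and 9.61 in the arrays labelled deleted. The replicate 1 sets of both clones were at -0.22 and the replicate 2 sets at -0.0021 and -0.0030. The mean of -0.11 ± 0.05 (SE, n = 4 sets; limma adjusted p = 0.84) therefore describes neither pair of sets, and the groups overlapped.

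The small subunit factors had mean changes between -0.081 and 0.062. Ddx10, a helicase of the early particle, had the highest mean (0.062) and the widest spread, from 0.26 in clone 1 replicate 1 to -0.21 in clone 2 replicate 2. Rrp12, a factor of export to the cytoplasm, had the lowest. Between them stood Utp4, Utp20 and Wdr43 (0.0036, -0.061 and 0.010), all components of the early processome, Nop14 and Noc4l (-0.017 and -0.0011), which act as partners in it, and Tsr1 (-0.00057), a factor of the last steps in the cytoplasm.

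Of the 9 measured large subunit factors, 7 had a mean below 0, where 50.1% of all genes had one above 0. Bop1, Pes1 and Wdr12, which form the PeBoW complex of large subunit maturation, stood at -0.063, 0.016 and -0.020. Rrs1, a factor that brings 5S RNA into the particle, stood at -0.072. Nop2, a methyltransferase of the large ribosomal RNA, stood at 0.029, Nop16 at -0.031 and Rrp1b at -0.0049. Wdr74 and Nle1, assembly factors on which AAA-type ATPases act, stood at -0.025 each. A second probe set of Wdr12 gave a mean of -0.069 and a second one of Fbl -0.018.

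Where 50.1% of all genes had a mean change above 0, 13 of the 35 did and 22 were below. This split moves with the scale: after each array was centred on its median, 6 of the 13 turned to below 0. The genes above 0 in 4 of 4 sets were Myc, Odc1 and Heatr1 (3 of 35, against 6.63% of all genes), and those below 0 in 4 of 4 were Rrp9 and Mybbp1a (2 of 35, against 6.51%). Both shares are near that of all genes.

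**Figure D2:**
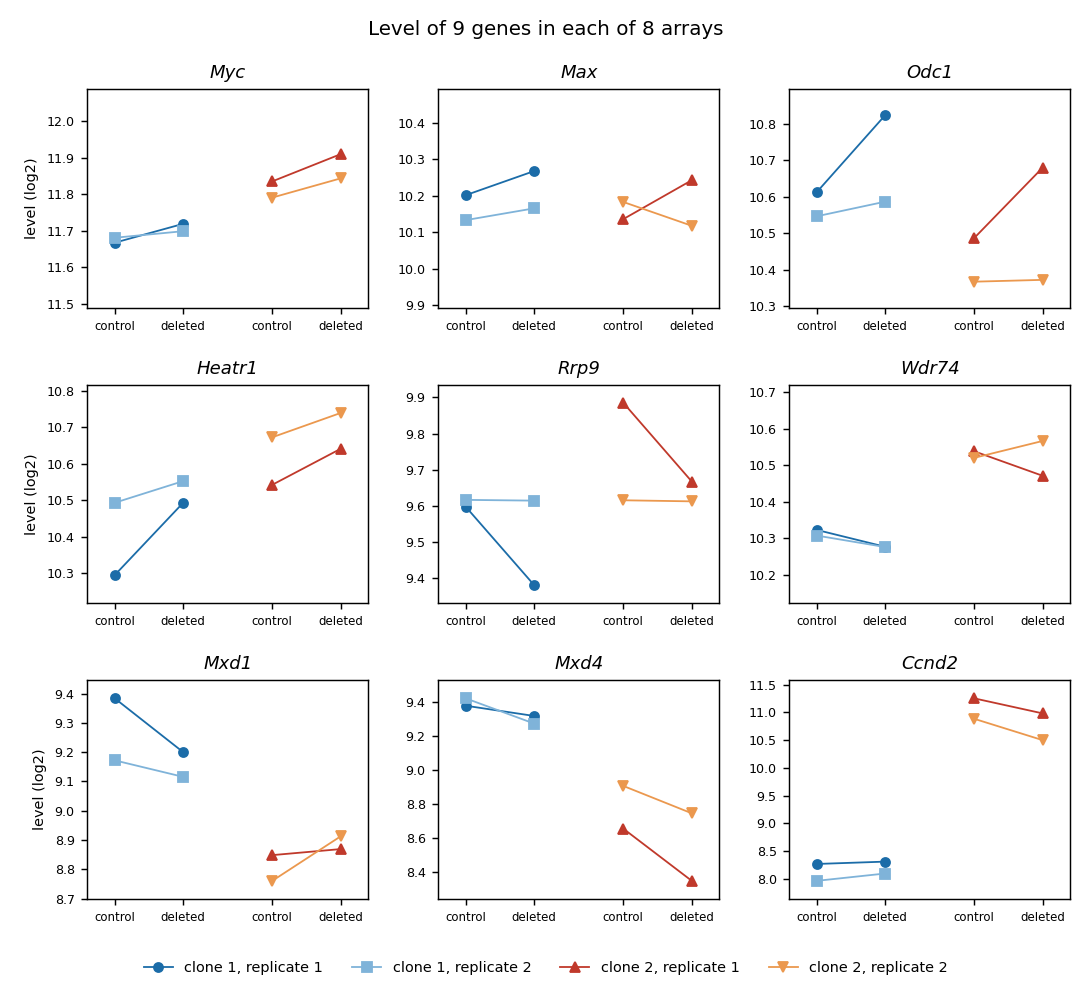
Level (log2) of 9 genes in each of the 8 arrays, with a line joining the control and the array labelled deleted of a set; each panel has its own axis range, which does not start at 0. Myc and Wdr74 are higher in every clone 2 array than in any clone 1 array, the lines of Odc1 and Rrp9 are steepest in the replicate 1 sets, and Ccnd2 differs most between the clones.

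The sets are next described by their medians, with no test. The median change of the 35 genes was 0.052 in clone 1 replicate 1, 0.013 in clone 1 replicate 2, -0.032 in clone 2 replicate 1 and -0.047 in clone 2 replicate 2. The genes above 0 numbered 24, 24, 11 and 7 of 35 in that order. Over all genes the medians were 0.0032, 0.0093, -0.022 and 0.016, and 50.9%, 53.9%, 42.5% and 53.9% were above 0. The 9969 genes above the median level, a class that holds all 35, had medians of 0.046, -0.0024, 0.016 and -0.062. Their sign was that of the 35 genes in the first and the last set and the opposite in the other sets, and its part in the result was not tested.

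Nop56, Nop58, Wdr12, Polr1b, Ddx21 and Gnl3 were above 0 in both clone 1 sets and below 0 in both clone 2 sets. That is 6 of 35 (17.1%), against 4.69% of all genes, and none showed the opposite pattern, which 3.22% of all genes did. A second Wdr12 probe set lacked the pattern, with 0.11 and -0.087 in clone 1 and 0.051 and -0.35 in clone 2. The test of the difference between the clones' changes called none of the 35, as it called 0.01% of all genes. At an unadjusted p under 0.05 it gave 2, Ddx21 and Gnl3, where 1.97% of all genes had such a p. Ddx21 had the smallest p. Its controls were at 11.20, 11.33, 11.42 and 11.44 and its arrays labelled deleted at 11.32, 11.35, 11.31 and 11.28. The treated arrays lay close together, and both clone 2 controls were above both clone 1 controls, which also differed from each other. The changes were 0.13 and 0.018 in clone 1 and -0.10 and -0.16 in clone 2, a difference of -0.21 ± 0.07 (SE, 2 sets per clone; limma adjusted p = 1.0). Of the 35 differences, 29 were below 0, where 46.2% of all genes were above 0. Their median was -0.053, against -0.011 over all genes.

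Within each clone alone none of the 35 passed either, where 0.181% of all genes did in clone 1 and 0.682% in clone 2. The smallest p within clone 1 was that of Heatr1 (0.13 ± 0.06, SE) and within clone 2 that of Ddx21 (-0.13 ± 0.05, SE). Unadjusted p under 0.05 counted 1 gene in clone 1, against 3.64% of all genes, and 2 in clone 2, against 5.17%.

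The sets were also compared by replicate number. In the replicate 1 sets none of the 35 passed, where 0.963% of all genes did, and 5 had an unadjusted p under 0.05 (Odc1, Rrp9, Heatr1, Ddx10 and Ncl; 14.0% of all genes). In the replicate 2 sets none passed, against 0.828%, and none had such a p, against 13.5%. The difference between the numbers passed for none of the 35 and for 0% of all genes. At an unadjusted p under 0.05 it gave Odc1, Rrp9, Ncl and Ddx10, 4 of 35 against 18% of all genes. For Odc1, which had the smallest p, the difference was -0.18 ± 0.07 (SE; limma adjusted p = 0.22). The labels tie the numbers to no date or experiment.

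In control arrays the median size of the difference between clones was 0.14 over the 35 genes, against 0.096 over all genes and against 0.025 for their change over the sets, which rests on more arrays, and 26 of the 35 (74.3%) were above 0, that is, higher in clone 2, against 59.8% of all genes. The median difference was 0.075, against 0.032 over all genes and -0.0082 over the genes above the median level. None passed the test, where 3.97% of all genes did (1.6% higher in clone 2 and 2.37% lower). At an unadjusted p under 0.05 there were 7 of 35 (20%), against 12.3% of all genes: Wdr74, Polr1c, Ddx21, Myc, Bop1, Heatr1 and, lower in clone 2, Wdr12. This count moved with the processing. After each array was centred on its median, 0 of the 35 had such a p, where 2227 of the 19938 genes did. Without a variance trend 2 had one (2396 of all genes), and with array weights 13 did (4090 of all genes).

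Wdr74 had the smallest p. Its clone 1 arrays stood at 10.32 and 10.31 in control and 10.28 in both arrays labelled deleted, and its clone 2 arrays at 10.54, 10.52, 10.47 and 10.57. Every clone 2 array was above every clone 1 array, and the difference among controls was 0.21 ± 0.07 (SE, 2 arrays per clone; limma adjusted p = 0.18). Myc, with the array values given above, was higher in clone 2 by 0.14 ± 0.05 among controls (SE; limma adjusted p = 0.28) and by 0.17 ± 0.05 in the arrays labelled deleted (SE; limma adjusted p = 0.12). With replicate number as a block the last value had an adjusted p of 0.048, and after a second quantile normalization 0.039. In 10 of 12 alternatives it did not pass. Its limma adjusted p was 0.31 without a variance trend, 0.33 with array weights and 0.50 after each array was centred on its median.

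All 4 clone 2 arrays were above all 4 clone 1 arrays for 8 of the 35 genes, against 9.22% of all genes. These were Myc, Bop1, Pes1, Wdr43, Wdr74, Polr1c, Nle1 and Mybbp1a. Nop14 and Wdr12 were lower in every clone 2 array than in any clone 1 array, 2 of 35 against 10.5% of all genes. In control arrays the 3 RNA polymerase I subunits stood at 0.038 (Polr1a), 0.14 (Polr1b) and 0.23 (Polr1c), a median of 0.14, and Heatr1 and Mybbp1a at 0.21 each. Of the 10 further genes of the polymerase I machinery, 7 were above 0, where 59.8% of all genes were. Their median was 0.028, which is also the median of the 5 snoRNP genes among the 35.

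In the arrays labelled deleted the median clone difference over the 35 was 0.019, against 0.033 over all genes and -0.053 over the genes above the median level, which hold all 35. None of the 35 passed, where 5.25% of all genes did (1.82% higher and 3.43% lower), and 5 had an unadjusted p under 0.05 (14.3%), against 17.8%. Nop14 came nearest. It was at 9.85 and 9.75 in clone 1 and 9.51 and 9.37 in clone 2, a difference of -0.36 ± 0.10 (SE; limma adjusted p = 0.061). Wdr12 followed with 10.73 and 10.66 against 10.46 and 10.37, a difference of -0.28 ± 0.08 (SE; limma adjusted p = 0.063). With replicate number as a block the adjusted p was 0.017 for Nop14 and 0.016 for Wdr12, and that fit also called Wdr74 and Myc. Tested among the genes above the median level alone, the adjusted p was 0.042 for Nop14 and 0.041 for Wdr12, and with the mean of a gene's probe sets it was 0.048 for Wdr12. Nop14 did not pass in 10 of 12 alternatives, with a limma adjusted p of 0.22 with array weights and 0.11 after centring. Wdr12 passed in no alternative beyond these.

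Marker genes differed between the clones as well, and their part in these differences was not tested. Of the 12 myeloid progenitor markers, 1 was called lower in the clone 2 controls and 1 higher. Among controls, Cebpa was lower in clone 2 by -0.70 ± 0.12 and Csf1r higher by 0.70 ± 0.13 (SE; limma adjusted p = 0.0082 and 0.012). Ms4a2 of mast cells was lower by -0.96 ± 0.17, Pecam1 of endothelium lower by -1.04 ± 0.13 and Gp9 of megakaryocytes higher by 0.70 ± 0.13 (SE; limma adjusted p = 0.0087, 0.0010 and 0.014). Each was the only called gene of its list (1 of 7, 1 of 6 and 1 of 5, against 3.97% of all genes). The medians of these lists (mast cell and basophil, stroma and endothelium, megakaryocyte) were -0.015, 0.14 and 0.14, with 3, 4 and 3 genes above 0. Ms4a3, a myeloid progenitor marker, had a difference of -1.38 ± 0.53 that did not pass (SE; limma adjusted p = 0.27). The 5 measured B cell markers had a mean level of 5.01 to 5.14 in clone 1 and 5.67 to 5.96 in clone 2. Cd79b carried this, with a difference of 2.99 ± 0.16 (SE, limma adjusted p = 1.3e-06), and was the only called gene of the 5. Cd79a, Pax5, Ebf1 and Ms4a1 had mean levels of 4.43, 5.91, 4.68 and 4.26, below the lowest array median of 6.26.

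**Figure D3:**
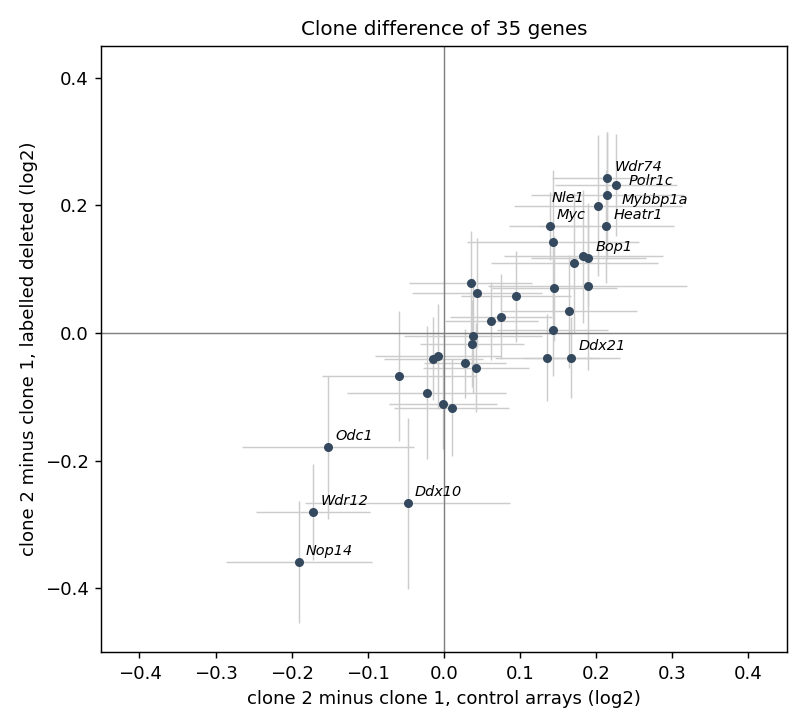
Clone difference (clone 2 minus clone 1, log2) of the 35 genes in control arrays, on the x axis, and in arrays labelled deleted, on the y axis, with SE bars from limma. Wdr74, Polr1c, Mybbp1a, Nle1, Heatr1 and Myc lie high on both axes, and Nop14 and Wdr12 lie low on both. Ddx21 is above 0 in controls only. The axes use different arrays of the same sets.

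The rest of the pathway was read from 8 lists with no gene in common with the 36. None of their genes passed the test of change over the 4 sets, where 0.953% of all genes did. The lists held 14 measured genes of the MYC and MAX network, 25 other MYC targets, 39 factors of small subunit assembly, 40 of large subunit assembly, 10 of the RNA polymerase I machinery, 12 of snoRNP assembly, 53 cytosolic ribosomal proteins and 14 proliferation genes. Their median changes ran from -0.038 for proliferation to 0.022 for the polymerase machinery. Ribosomal proteins, the products that end up in the ribosome, had a median of 0.0055 and a median size of 0.012.

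The further assembly factors, read from the same 8 arrays, gave the following medians. Small subunit factors had a median of 0.082 in clone 1 replicate 1, with 32 of 39 above 0, and of -0.12 in clone 2 replicate 2, with 3 of 39. The sets between stood at -0.012 and -0.0024. Large subunit factors had medians of 0.064, 0.014, -0.036 and -0.091, with 33, 22, 13 and 7 of 40 above 0. Both lists, like the 35 genes, were highest in the first set and lowest in the last. The same held for other MYC targets (0.042 and -0.064 in these sets), snoRNP assembly (0.071 and -0.056), the polymerase I machinery (0.033 and -0.024) and proliferation (0.012 and -0.078), as for the genes above the median level. Another order was seen in ribosomal proteins, with -0.023, 0.0061, 0.033 and -0.0035, and in the MYC and MAX network, with -0.073, 0.0069, -0.027 and 0.0060.

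**Figure D4:**
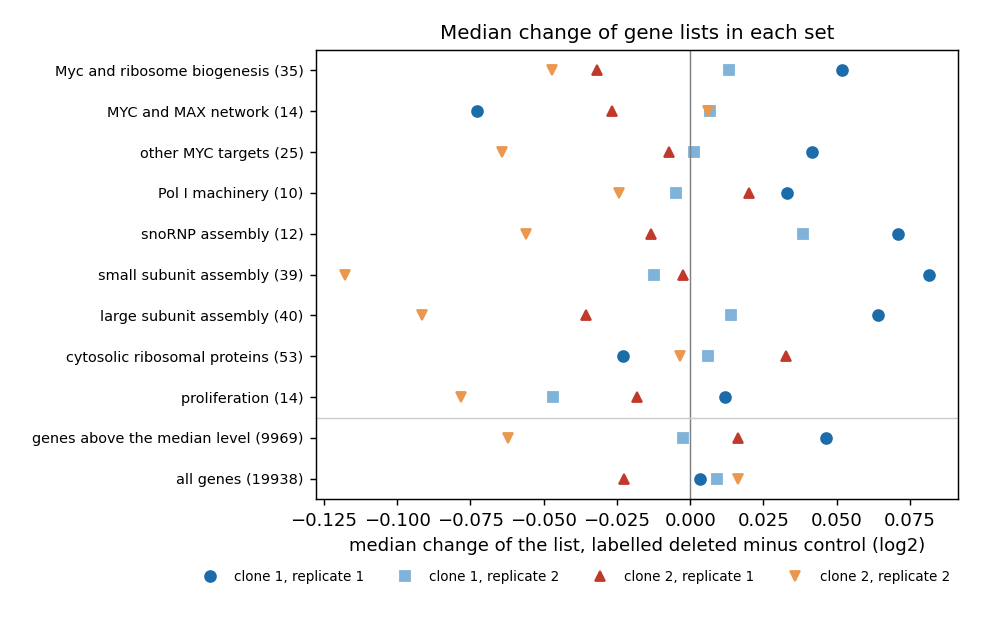
Median change (log2, array labelled deleted minus control) of each gene list in each of the 4 sets, with the number of genes measured in brackets. The 35 genes are highest in clone 1 replicate 1 and lowest in clone 2 replicate 2, and so are 6 of the 8 lists and the 9969 genes above the median level; all genes, ribosomal proteins and the MYC and MAX network are not.

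Between the clones' control arrays, 3 of the 207 measured genes of the 8 lists passed (1.45%, against 3.97% of all genes), and in the arrays labelled deleted 2 of 207 (0.966%, against 5.25%). Mxd1 and Mxd4 encode MAX partners that repress MYC targets, and both were lower in clone 2, where Myc itself was higher in every array without passing the test. They were 2 of the 14 measured genes of the MYC and MAX network, which as a list did not share this direction. In controls 9 of the 14 were above 0, with a median of 0.044, where 59.8% of all genes were above 0. In the arrays labelled deleted 8 were, with a median of 0.020. The 25 other MYC targets had a median clone difference of -0.020 in controls, with 10 above 0 (59.8% of all genes). In the arrays labelled deleted their median was -0.040, with 6 above 0 (57.8% of all genes). Odc1 was lower in clone 2 without passing, with -0.15 ± 0.11 in controls and -0.18 ± 0.11 in the arrays labelled deleted (SE). Mxd4 stood at 9.38 and 9.42 in the clone 1 controls and at 8.65 and 8.91 in those of clone 2, a 1.54-fold difference (-0.62 ± 0.14, SE; limma adjusted p = 0.032). It also passed in the arrays labelled deleted, with a 1.68-fold difference (-0.75 ± 0.14, SE; limma adjusted p = 0.0098). Mxd1 was at 9.38 and 9.17 against 8.85 and 8.76, a 1.39-fold difference (-0.47 ± 0.11, SE; limma adjusted p = 0.032). Leaving out any 1 of the 4 control arrays ended both calls among controls, with adjusted p from 0.053 to 0.33 for Mxd1 and from 0.059 to 0.28 for Mxd4, and Mxd4 was also lost without a variance trend (0.051) and after a second quantile normalization (0.063).

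Ccnd2, which encodes cyclin D2, a MYC target that drives entry into the cell cycle, differed most. It was at 8.27 and 7.97 in the controls of clone 1 and at 11.25 and 10.89 in those of clone 2, a 7.73-fold difference (2.95 ± 0.18, SE; limma adjusted p = 3.4e-06). In the arrays labelled deleted it was at 8.31 and 8.10 against 10.98 and 10.50, a 5.80-fold difference (2.54 ± 0.18, SE; limma adjusted p = 1.1e-05). No array of one clone came near those of the other.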

How the data were processed

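The deposited table held log2 probe-set levels of 35556 probe sets on 8 arrays, which the authors made with RMA, per the submitters' processing notes. Neither RMA's version nor the chip definition is given in the sources used here. The platform annotation gave 21789 probe sets 1 gene symbol, and the brightest of each gene left 19938 genes. Fits used limma 3.58.1 in R 4.3.3 with a variance trend, two-sided p-values and adjustment over all genes by Benjamini-Hochberg. The change over 4 sets, and its difference between clones or replicate numbers, had the set (clone and replicate number) as a block. Clone differences came from an unblocked fit with a mean for each clone in each group (4 means). SE are moderated by the fit. The 4 sets come from 2 clones and may not be independent.

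The set pairing comes from the series' design text and the sample titles. Arrays of a set deviated together from their group means (r from 0.72 to 0.82, and 0.44 and 0.25 with clone means removed). Scripts were tested on simulated data. The genes, lists and tests were chosen with earlier results of these data known. Every gene was named in its role. Values in all arrays were to be given for Myc, Max, Odc1 and the 4 smallest p, and otherwise the smallest p of a comparison was named, with up to 3 called genes per list. Genes named beyond this, such as Nop14, Wdr12 and Gnl3, were chosen after their values were seen. Alternatives changed the block, the variance model, the scaling, the probe set rule and the arrays included. No 2 arrays held identical values.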

Additional observations from a re-analysis of the deposited data

Results flagged for a closer look

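In groups of 4 arrays or 4 set changes, a value was picked out where its gap to the nearest of the others exceeded Dixon's 95% critical share of the whole range. Over 105 such groups of the 35 genes this picked 6, and chance at 1 in 20 gives 5.25. Rrp1b in the array labelled deleted of clone 1 replicate 2 was at 9.97, while the other 3 stood between 10.24 and 10.28, and its set change in clone 1 replicate 1 was 0.10, against -0.051 to -0.033. Rrp9 in the control of clone 2 replicate 1 was at 9.89, against 9.60 to 9.62, and it is the control of 1 of the 2 sets whose Rrp9 change was -0.22. The set change of clone 1 replicate 1 was apart for Rrs1 (0.058, against -0.13 to -0.10) and for Utp20 (0.036, against -0.10 to -0.081). Gnl3 in the array labelled deleted of clone 2 replicate 2 was at 10.59, against 10.66 to 10.67.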

How the results depend on the processing

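No alternative called any of the 35 genes in the change over 4 sets. Over 15 alternatives, 0 to 5 of them had an unadjusted p under 0.05, and the lowest adjusted p was 0.072, for Odc1 without clone 2 replicate 2. Genes called among all 19938 numbered 190 as reported, 0 without the replicate block, 23 with clone in its place, 78 with clone and replicate number, 13 without a variance trend and 388 with array weights. A test over all 35556 probe sets called 0. Leaving out 1 set gave 98 (without clone 1 replicate 2) to 418 (without clone 2 replicate 2), and 110 without clone 2 replicate 1. The genes called higher were 50.5% of those called as reported, 40.6% after centring, 76.9% without a variance trend, 36.4% without clone 2 replicate 1 and 59.6% without clone 2 replicate 2.

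The difference between clones called 2 genes as reported, 0 without the replicate block, 0 without a trend and 12 after centring each array. That between replicate numbers called 18 with robust moderation and 316 after centring (27.5% of them higher), where the median of the 35 was -0.12. Centring moves the median of all genes' difference between replicate numbers from 0.013 to -0.057. Deviations of same-numbered arrays of the 2 clones had an r of 0.091 among controls and of 0.51 among treated arrays. The treated arrays thus varied together in part, for a reason that was not tested. The labels themselves link them by replicate number only. With that number as a replicate block, the clone difference called 1330 genes in control arrays and 1927, with 4 of the 35, in the arrays labelled deleted; it changed no other call of the 35. Array weights gave 1599 genes with 1 of the 35 (Wdr74, adjusted p 0.044) and, in the arrays labelled deleted, 567. Control arrays alone gave 1241, and leaving out 1 control array 352 to 461. In the arrays labelled deleted, quantile normalization called 1 of the 35 (Myc), the mean of probe sets 1 (Wdr12) and genes above the median level 2 (Nop14 and Wdr12), and centring put the median of the 35 at -0.027.

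Of the 35 changes, 19 turned sign under an alternative, all of reported size at most 0.062, and 16 kept it, Myc, Max, Odc1, Heatr1 and Rrp9 among them. Array weights gave 0.00031 for Nop58, 0.0047 for Wdr12, -0.0081 for Polr1a, 0.012 for Gnl3 and 0.023 for Noc4l. Quantile normalization gave 0.0045 for Nop56, 0.0059 for Fbl, 0.0023 for Rrp1b, 0.0033 for Noc4l and 0.0060 for Tsr1. Centring gave -0.0051 for Npm1, -0.0071 for Pes1, -0.013 for Wdr43, -0.014 for Polr1a, -0.0094 for Nolc1 and -0.019 for Utp4. Leaving out 1 set gave ranges of -0.0073 to 0.073 for Ncl, -0.034 to 0.022 for Fbl, -0.017 to 0.037 for Pes1, -0.0034 to 0.029 for Wdr43, -0.029 to 0.033 for Polr1a and -0.0097 to 0.027 for Utp4. They were -0.0020 to 0.15 for Ddx10, -0.028 to 0.014 for Noc4l, -0.041 to 0.010 for Rrp1b, -0.064 to 0.031 for Tsr1, -0.020 to 0.058 for Npm1 and -0.068 to 0.013 for Nop14. For Nop56 the range was -0.025 to 0.013, for Polr1b -0.050 to 0.018, for Nop58 -0.049 to 0.018, for Wdr12 -0.043 to 0.013, for Ddx21 -0.083 to 0.014 and for Gnl3 -0.050 to 0.032. The cause of these shifts was not tested.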
